A study of Homo sapiens with 2 samples.

Results

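The genes described here are 10 heat shock genes whose proteins work in the cytosol or the mitochondria: HSPA1A, HSPA1B, HSPA8, HSPH1, DNAJB1, HSPB1, HSP90AA1, HSP90AB1, HSPD1 and HSPE1. They were chosen by name as members of the chaperone families, and every array probe whose RefSeq transcript belongs to one of them was taken. This gave 16 probes, out of 50532 on the array, for 10 of the 23752 genes and transcripts that were measured, that is, well above background on at least 1 array. HSPA1A, HSPA1B, HSPA8, DNAJB1, HSPD1 and HSPE1 had 1 probe each, and the other 4 genes had several. All 16 probes were well above background on both arrays.

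The RNA came from HepG2, a human liver tumor cell line, in 2 conditions with 1 array each. Control cells received the vehicle, 1‰ DMSO, and treated cells received hawk tea extract (HTE), both for 24 h. The sample labels put the HTE dose at 200 μg/mL, whereas the methods and a file label put it at 300 μg/mL, and the array values cannot settle which was used. Both arrays lay on the same slide and were scanned together. With 1 array per condition, the effect of HTE and the difference between the cultures or arrays cannot be told apart, no test between the conditions is possible, and none is given.

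Of the spots that are not controls, 60.6% stood well above background with DMSO and 56.6% with HTE. No spot was saturated. The labelled cell type was checked against its markers. All 10 hepatocyte and HepG2 markers were measured, with albumin (ALB) at 5.21 on the DMSO array and 5.40 on the HTE array in log2 signal over the array's 75th percentile. The liver factor HNF4A had the lowest probe signal of them, at -2.19 and -2.05. Log2 ratios of HTE over DMSO ran from -0.36 for FGB to 0.21 for SERPINA1. Of 10 markers of other cell types, KRT5, HBB and CD3E were not well above background on either array, and 7 were measured. The smooth muscle actin gene ACTA2 had the highest signal of the 7, at 2.31 and 2.47. The macrophage marker CD68 lay at 0.04 and 0.51, with the highest ratio of 0.46. The endothelial marker PECAM1 lay at -2.32 and -4.14 on its brightest probe, with the lowest ratio of -1.82, and was the only marker past 2-fold. HNF4A and ACTA2 were picked out after their values were seen. The part of other cell types in the values below was not tested.

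Heat shock proteins are molecular chaperones, which bind unfolded or partly folded proteins and help them to fold, to stay soluble or to reach the degradation machinery. HSP70 proteins hold short exposed stretches of a client in cycles driven by ATP. J-domain proteins such as DNAJB1 deliver the client and start ATP hydrolysis, and HSP110 proteins such as HSPH1 exchange the nucleotide. HSP90 acts later on clients such as kinases and steroid receptors, small heat shock proteins such as HSPB1 hold unfolding proteins without ATP, and HSPD1 with its lid HSPE1 forms the folding chamber of the mitochondrial matrix. When unfolded proteins accumulate, the transcription factor HSF1 forms trimers and binds heat shock elements, which are inverted repeats of a short unit. HSPA1A, HSPA1B and DNAJB1 are known as strongly inducible genes, and HSPA8 and HSP90AB1 as the mainly constitutive members of their families.

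The promoters of the genes are shown first, since they were searched for the heat shock elements through which HSF1 acts. The RefSeq windows run from 250 bases before to 50 bases after each start site (GRCh38.p14), and the table held 16 windows covering all 10 genes. Elements of 2 units were searched as TTCNNGAA and GAANNTTC, each of which is its own reverse complement, so that both strands were covered. Only exact letters counted, so a unit with a mismatch would be missed. A three-unit element is one in which these forms overlap so that 3 units alternate over 13 bases. The 6 stretches below set the inducible HSP70 pair beside the constitutive HSPA8, with HSP90AA1, DNAJB1 and HSPB1 as the heat-responsive members of other families. Each lies upstream of the start and is written 5′ to 3′ on the gene's strand, with the matches in capitals.
HSPA1A, chr6:31815413-31815522, plus strand: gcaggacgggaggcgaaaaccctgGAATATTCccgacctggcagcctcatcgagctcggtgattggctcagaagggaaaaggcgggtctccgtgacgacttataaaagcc
HSPA1B, chr6:31827609-31827718, plus strand: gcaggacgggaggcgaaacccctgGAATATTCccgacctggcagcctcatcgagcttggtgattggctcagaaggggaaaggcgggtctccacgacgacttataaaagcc
HSPA8, chr11:123062157-123062266, minus strand: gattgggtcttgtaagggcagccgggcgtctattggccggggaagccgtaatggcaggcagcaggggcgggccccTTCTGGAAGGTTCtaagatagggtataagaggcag
HSP90AA1, chr14:102087065-102087174, minus strand: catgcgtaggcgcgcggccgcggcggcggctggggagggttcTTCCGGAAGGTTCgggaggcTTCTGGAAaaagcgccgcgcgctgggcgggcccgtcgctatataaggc
DNAJB1, chr19:14518418-14518527, minus strand: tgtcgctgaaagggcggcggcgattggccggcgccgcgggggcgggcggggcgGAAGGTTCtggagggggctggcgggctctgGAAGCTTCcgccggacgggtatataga
HSPB1, chr7:76302443-76302552, plus strand: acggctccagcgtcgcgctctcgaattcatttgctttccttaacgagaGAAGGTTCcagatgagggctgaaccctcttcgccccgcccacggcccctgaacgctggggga

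A match of any of these forms lay in 9 of the 16 windows, which belong to 8 of the 10 genes. Over all 35116 windows in the table, 13.5% held a match of any form and 0.49% held a three-unit element. Elements of 3 units lay in 4 of the 16 windows, those of HSPA8, HSP90AA1, HSP90AB1 and HSPD1. Of the exact forms, the windows of HSPA1A, HSPA1B, HSPB1 and DNAJB1 held the 2-unit GAANNTTC alone. It was present in 6.77% of all windows, against 7.74% for TTCNNGAA. No window of HSPH1 or HSPE1 held these letters. The HSPA1A and HSPA1B windows were nearly the same sequence, with 92.6% of 299 aligned bases identical. HSPD1 and HSPE1 are transcribed in opposite directions from start sites 105 bases apart. A match is a description of letters and does not show that HSF1 bound there.

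**Figure D1:**
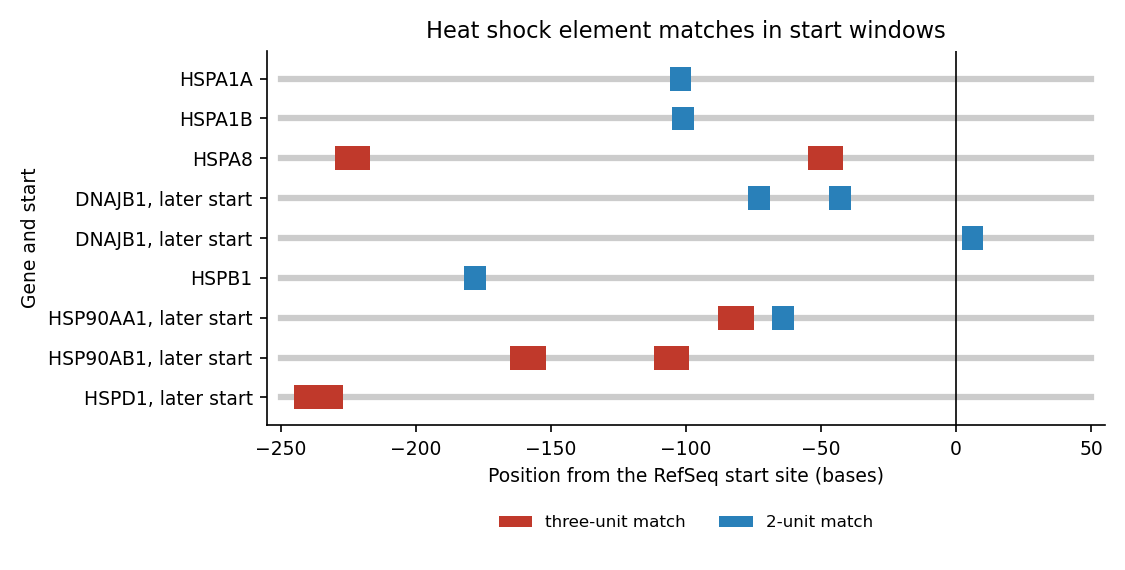
Heat shock element matches in the RefSeq windows of the heat shock genes, with position from the start site in bases on the x axis and 1 line per window that holds a match. Red blocks are three-unit matches of 13 bases and blue blocks are 2-unit matches; DNAJB1, HSP90AA1, HSP90AB1 and HSPD1 are shown at start sites downstream of their first one, and windows without a match are not drawn.

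Each value below is the processed signal of a probe, in the arbitrary units of the scanner software, followed by the log2 ratio of HTE over DMSO after each array was scaled to its own 75th percentile. That percentile was 4020 on the DMSO array and 3570 on the HTE array, so a probe with the same signal on both has a ratio above 0. Signals of different probes are not comparable with each other. The error of a ratio could be measured only within the arrays. The SD of the log2 ratio among replicate spots of a probe had a median of 0.05 over 688 probes. The SD among probes of a gene had a median of 0.16 over 3759 genes. The error model of the scanner software came to 0.20 for the ratio of a single spot, which is a modelled and not a measured error. It ran only from 0.2040 to 0.2049 over the heat shock probes, although their signals differ widely. Comparisons with the error model below therefore use a modelled size. Neither the measured SDs nor the error model include the variation between cultures. In these bulk samples, fewer cells that express a gene and less RNA per cell cannot be told apart.

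Of the HSP70 genes, the inducible pair had ratios above 0 and the constitutive gene a ratio below 0. HSPA1A, which encodes an inducible cytosolic HSP70, was measured by 10 replicate spots, of which 9 were usable on both arrays. Their signals ran from 59884 through a median of 62981 to 64122 on the DMSO array, and from 62276 through 65169 to 69794 on the HTE array. The signals overlapped before scaling, and after it all 9 spots were higher on the HTE array, with ratios from 0.16 to 0.36. The HSPA1A ratio was 0.23, with an SD among spots of 0.072, which is a difference of 17.5%. HSPA1B, which encodes almost the same protein, had a signal of 81256 on the DMSO array and 92386 on the HTE array, and a ratio of 0.36. The probes of this near-identical pair may share signal, so they are not independent measurements.

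HSPA8, the HSP70 that cells make without stress, had a signal of 60233 on the DMSO array and 47819 on the HTE array. Its ratio was -0.16, or -10.6%, a size within the 0.20 of the error model. The HSPA1A ratio exceeded the HSPA8 ratio by 0.39, and the HSPA1B ratio exceeded it by 0.52. The error model gives 0.29 as 1 SD for the difference of 2 ratios. HSPA8 rests on 1 spot, and whether these gaps exceed the variation between cultures could not be tested. A difference of 2 ratios does not depend on the constant by which an array is scaled. Over all alternative settings it stayed between 0.37 and 0.41 for HSPA1A and between 0.39 and 0.52 for HSPA1B. Most settings could not move it, since these genes have 1 probe each, well above background on both arrays. Only quantile normalization, normexp correction, kept outlier spots and the signal before detrending could. HSPA1B and HSPA1A differed by 0.12, less than the error model, and by -0.0086 at the lowest over the alternatives.

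HSPH1 and DNAJB1, the HSP70 cofactors among the 10 genes, had ratios below 0. HSPH1, the HSP110 nucleotide exchange factor, had 2 probes. The brighter went from a signal of 25555 on the DMSO array to 20229 on the HTE array, a ratio of -0.17, and the dimmer from 19971 to 12426, a ratio of -0.51. The probes shared their sign and differed by more than 1 SD of the error model for a difference. DNAJB1, the J-domain partner that is itself heat inducible, had signals of 21733 and 18592 and a ratio of -0.054, which is close to the median SD among replicate spots.

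HSPB1, also called HSP27, had ratios above 0 on all 3 of its probes, of different sizes. The brightest probe had a signal of 68548 on the DMSO array and 78700 on the HTE array, and its ratio of 0.37, or 29.3%, was the highest of the 10 genes. The second probe had signals of 33038 and 34627 and a ratio of 0.24. The dimmest had signals of 1741 and 2711, below the 75th percentile on both arrays, and a ratio of 0.81, or 1.75-fold, the only one of the 16 probes past 1.5-fold. The 3 probes are assigned to the same RefSeq transcript, and the cause of the spread among them was not tested.

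**Figure D2:**
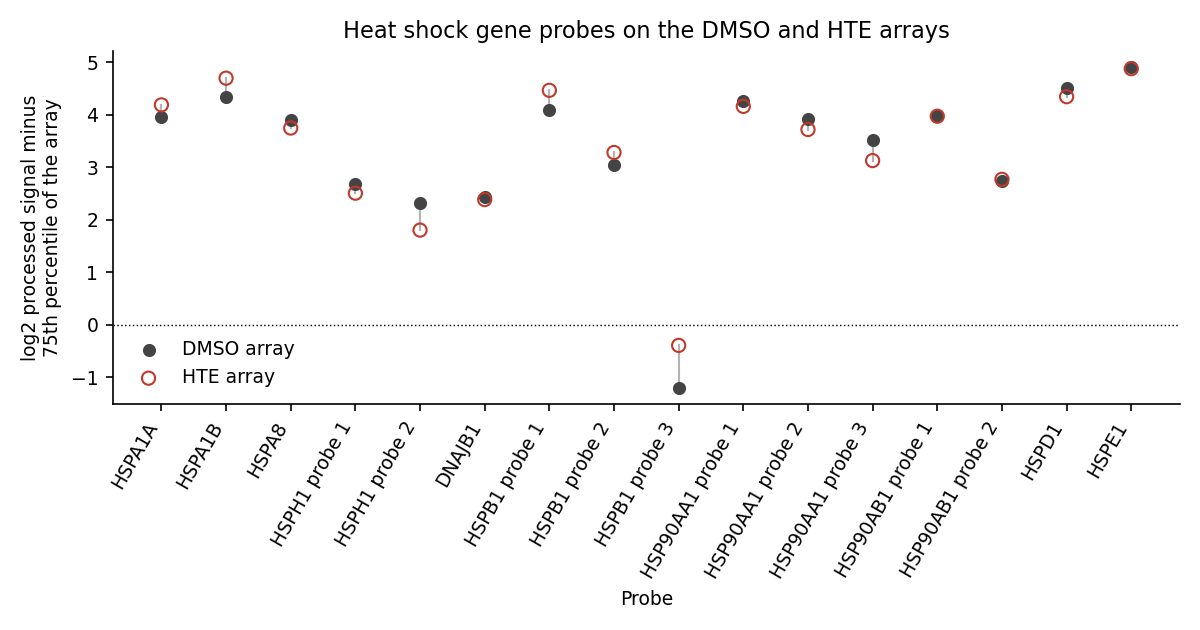
Scaled log2 signal (log2 processed signal minus the array's 75th percentile, y axis) of each of the 16 heat shock probes on the DMSO array (filled) and the HTE array (open), with probe 1 of a gene the brightest. All probes but HSPB1 probe 3, at -1.21 and -0.40, lie above the 75th percentile on both arrays; only the 2 points of the same probe can be compared.

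The HSP90 genes stood at or below 0. HSP90AA1, the stress-responsive HSP90α, had 3 probes, and 1 of them was measured by 10 replicate spots. Those spots ran from 59057 through a median of 60160 to 63041 on the DMSO array, and from 44903 through 46796 to 48668 on the HTE array, without overlap. Their ratio was -0.20 with an SD of 0.033, and 0 of the 10 spots were higher on the HTE array. The brightest HSP90AA1 probe, which stands for the gene, had signals of 77141 and 63668 and a ratio of -0.11. The last had signals of 45912 and 31120 and a ratio of -0.39. All 3 HSP90AA1 probes were thus below 0. The brightest and the last are assigned to 1 RefSeq transcript of the gene, and the probe with 10 spots to another.

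HSP90AB1, the constitutive HSP90β, had signals of 63360 and 55906 on its brighter probe and a ratio of -0.0094. Its dimmer probe had signals of 26728 and 24297 and a ratio of 0.034. The probes had opposite signs and both values were smaller than the SD among replicate spots. The HSP90AB1 ratio exceeded that of HSP90AA1 by 0.096, and by 0.047 to 0.24 over the alternatives, within the error model.

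The mitochondrial chaperonin genes, which share a promoter region, had small ratios. HSPD1, also called HSP60, had signals of 91167 on the DMSO array and 72332 on the HTE array and a ratio of -0.16. HSPE1, also called HSP10, had signals of 120882 and 104719 and a ratio of -0.036. Their ratios differed by 0.13, and by 0.040 to 0.13 over the alternatives, within the error model of 0.29 for a difference.

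**Figure D3:**
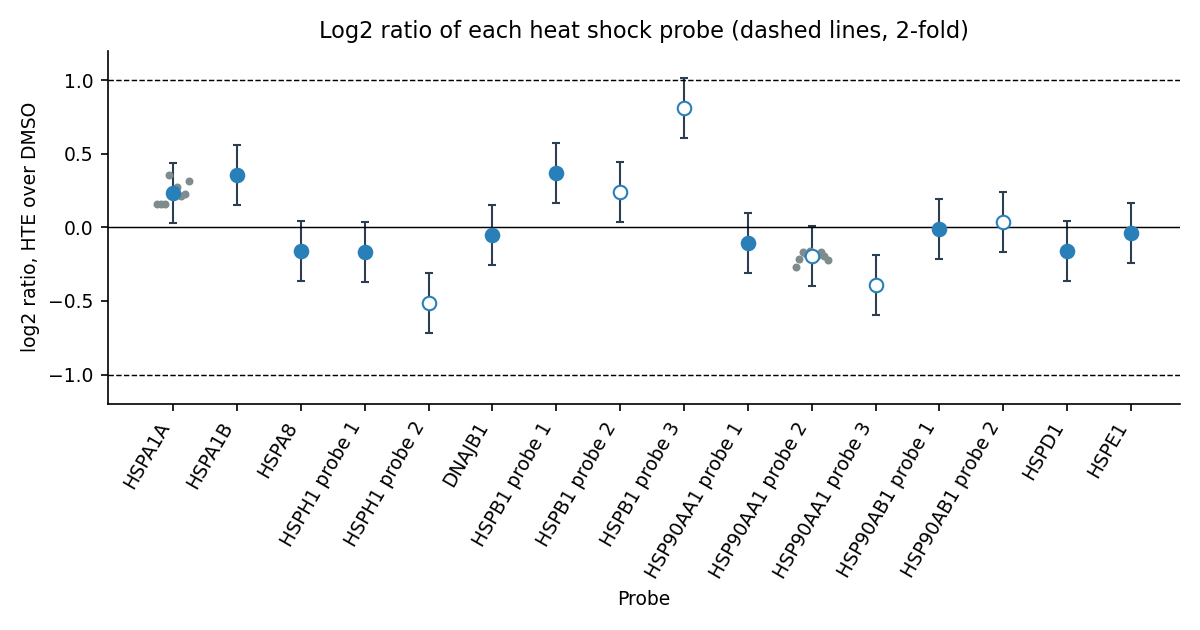
Log2 ratio of HTE over DMSO (y axis) for each of the 16 heat shock probes, with error bars of ± 1 SD from the scanner software's error model, about 0.20 for each probe. Filled points stand for the gene, grey dots are replicate spots of HSPA1A and HSP90AA1, dashed lines mark 2-fold, and no probe reaches them. When the arrays are scaled to the E1A spike-in, all ratios shift down by a constant and every probe above 0 turns below 0.

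By gene, 3 of the 10 ratios were above 0 and 7 were below 0, and the median was -0.045. Over all 23752 genes and transcripts, 49.0% were below 0 and the median was 0. Of these, 1272 stood at exactly 0, where a probe well above background on 1 array alone could be set. With the measured value of such probes, the median of all genes was -0.033. None of the 10 genes was 2-fold higher or lower, and none was past 1.5-fold, against 23.0% (5458) of all genes. Over all genes, 5.25% (1248) were higher by 2-fold or more with HTE and 3.03% (720) were lower by as much. Without scaling these counts were 883 higher and 1209 lower, and with scaling to the E1A spike-in they were 176 and 13435.

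The probes that stand for the heat shock genes are bright. The genes were therefore also set beside the 8694 genes above the 75th percentile on both arrays, a background chosen after the values were seen. Of these bright genes, 2.42% were past 2-fold in either direction, 11.2% were past 1.5-fold and 52.5% were below 0. With 0 of 10 past 2-fold, the heat shock genes cannot be told from either background by this count. HSPB1 and HSPA1B had higher ratios than 80.0% and 79.3% of all genes, HSPA1A than 72.4%, and HSPH1, the lowest, than 33.9%. The middle 50% of all genes, from -0.28 to 0.27, held 8 of the 10, and that of the bright genes, from -0.22 to 0.18, held 7. HSPA1A, HSPA1B and HSPB1 were the 3 outside the bright range.

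The signs of single genes depend on the scaling. Scaling to the E1A spike-in shifted the median of all genes by -1.07 and put HSPA1A, HSPA1B and HSPB1 below 0 with the rest, and omitting the scaling shifted it by -0.16. Relative to the median of all genes in the same setting, HSPA1A stayed between 0.025 and 0.27, HSPA1B between 0.15 and 0.39 and HSPB1 between 0.16 and 0.47. HSPA8 stayed between -0.37 and -0.13 on that measure, and HSPH1 between -0.37 and -0.13 as well. HSP90AB1 lay on either side of the median, between -0.22 and 0.023. The lowest value of each of these ranges came from omitting the filter on dim probes, not from the scaling. That setting shifted the median of all genes by 0.21 and left the ratios of the heat shock genes unchanged.

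**Figure D4:**
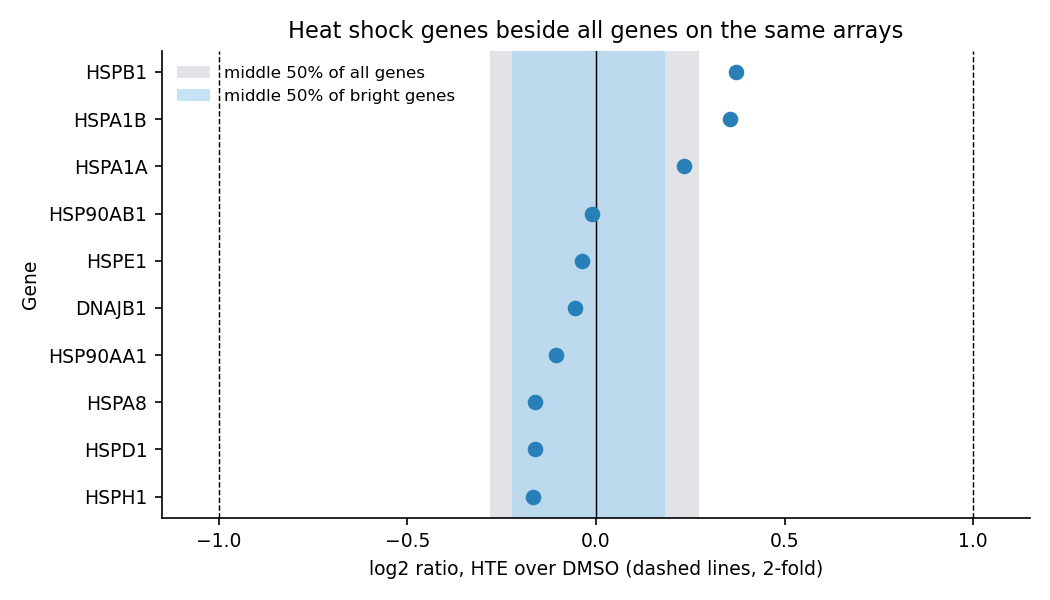
Log2 ratio of HTE over DMSO (x axis) for the 10 heat shock genes, each by its brightest probe, ordered by value. The grey band is the middle 50% of all genes (-0.28 to 0.27) and the blue band that of genes above the 75th percentile on both arrays (-0.22 to 0.18); HSPB1 and HSPA1B lie to the right of both bands, and under scaling to the E1A spike-in all 10 ratios are below 0.

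In the rest of the folding machinery, ratios past 2-fold were found for 2 small heat shock genes and 1 gene of the endoplasmic reticulum (ER). Of other HSP70 genes and HSP70 cofactors, 16 of 17 were measured, 5 were above 0, 11 below, none was past 2-fold and the median was -0.067. They ran from HSPA4L, an HSP110 relative, at -0.55 to HSPA2, known from germ cells, at 0.35. HSPA6, an HSP70 known to be made almost only under stress, and the HSF1 target BAG3 were picked out after their values were seen. HSPA6 lay at -3.79 in scaled log2 signal on both arrays, below the 75th percentile, with a ratio of -0.00055, and BAG3 had a ratio of -0.28. Of other cytosolic J-domain genes, 15 of 16 were measured, 9 were above 0 and 6 below, with a median of 0.045. The lowest was DNAJC9, a histone chaperone, at -0.45, and the highest was DNAJC6, a partner of HSP70 in uncoating clathrin vesicles, at 0.49.

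Other small heat shock genes had the highest median of the lists, 1.02, on only 4 measured genes of 9. This median was 0.57 with all probes of each gene averaged, 0.66 without the filter on dim probes and -0.065 with scaling to the E1A spike-in. All 4 were above 0 and 2 were past 2-fold. HSPB8, which works with BAG3 in the removal of misfolded proteins, went from -3.49 to -1.89 in scaled log2 signal, a ratio of 1.60. CRYAA, the α-crystallin of the lens, went from 0.79 to 2.36 on its brighter probe, a ratio of 1.57. Its dimmer probe had a ratio of -0.20, so the probes of CRYAA disagreed in sign. CRYAB and HSPB9 had ratios of 0.46 and 0.31.

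All 18 HSP90 cochaperones were measured, with 8 above 0, 10 below, none past 2-fold and a median of -0.021. FKBP5, a cochaperone of steroid receptors, was the lowest at -0.79, and CDC37L1 the highest at 0.32. Other mitochondrial chaperones and proteases, 16 of 16 measured, had 5 above 0 and 11 below, with a median of -0.078. They ran from SPG7, a protease subunit of the inner membrane, at -0.44 to DNLZ, a cofactor of mitochondrial HSP70, at 0.46. Subunits of the cytosolic chaperonin TRiC and of prefoldin, 14 of 14 measured, had 4 above 0 and 10 below, with a median of -0.029, from TCP1 at -0.47 to PFDN6 at 0.16.

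The factors that act on heat shock elements were close to 0. Of the heat shock factors and the HSF1 binding protein, 4 of 5 were measured, and they ran from HSF2 at -0.086 to HSF1 at 0.16. The 10 other genes known to be induced by heat had 6 above 0, 4 below, none past 2-fold and a median of 0.20, from SERPINH1, a collagen chaperone, at -0.24 to the polyubiquitin gene UBB at 0.38. Their median stayed at 0.20 with normexp correction but was 0.12 with scaling to the median and 0.059 with quantile normalization. It was 0.032 without scaling and -0.88 with scaling to the E1A spike-in. The 12 reference genes had 7 above 0 and 5 below, with a median of 0.084, from TBP at -0.49 to GAPDH at 0.43.

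Among the 10 ER heat shock proteins and cofactors, 2 were above 0 and 8 below, with a median of -0.14. HSPA5, the HSP70 of the ER lumen also called BiP, went from 0.22 to -0.81 in scaled log2 signal on its 1 probe, a ratio of -1.03, and was the only one past 2-fold. The highest was DNAJB9, an ER J-domain protein, at 0.52. The HSPA8 ratio exceeded that of HSPA5 by 0.87 and the HSPA1A ratio exceeded it by 1.26. These differences were 0.86 to 0.90 and 1.25 to 1.28 over the alternatives, few of which could move them, and have no error estimate. They are differences from HSPA5, the lowest of its list, and not between compartments. HSPA13 of the same ER list had a ratio of 0.38, above those of HSPA8 and HSPA1A. HSPA9 of the mitochondrial list had -0.11. HSPA13 and HSPA9 were picked out after their values were seen.

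**Figure D5:**
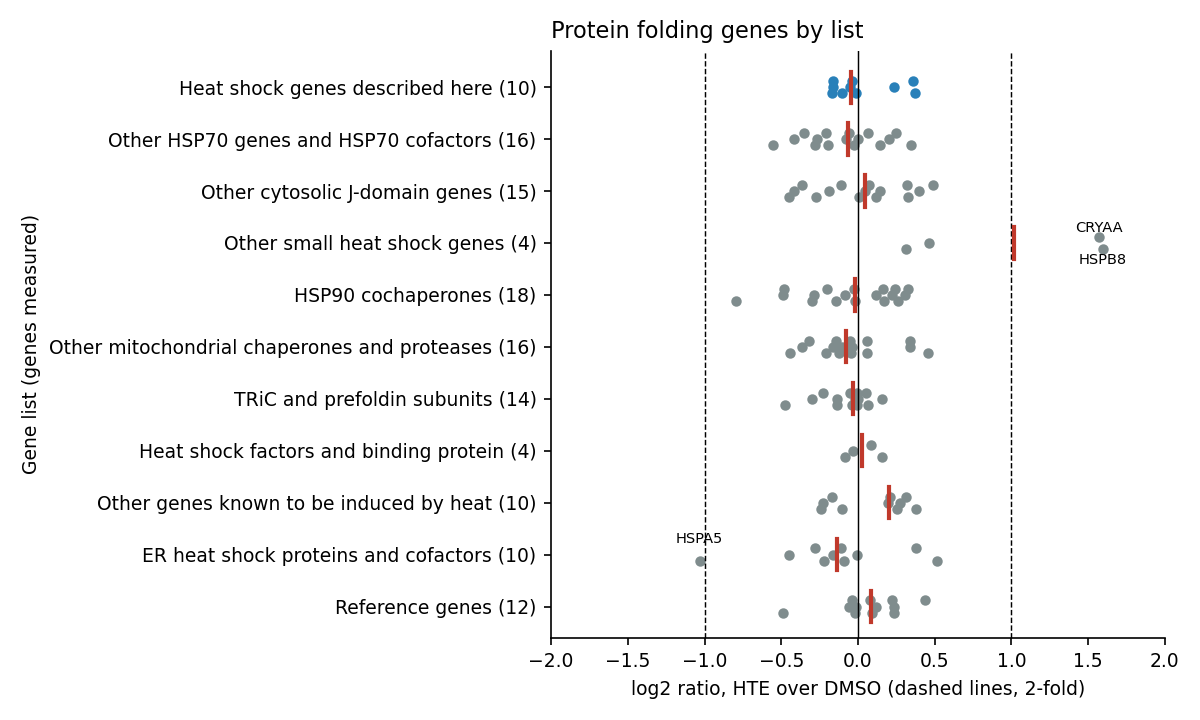
Log2 ratio of HTE over DMSO (x axis) of each measured gene by list (y axis, with the number measured), where red bars are list medians, dashed lines mark 2-fold and blue points are the 10 heat shock genes. Only CRYAA, HSPB8 and HSPA5 lie past 2-fold; with scaling to the E1A spike-in all ratios shift down and the median of the other small heat shock genes falls below 0.

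Genes other than the 10 whose RefSeq windows hold a three-unit heat shock element, HSPA6 among them, were described in the same way. The promoter table named 162 of them, of which 57 were measured. Of these, 26 were above 0 and 29 below, and the median was -0.00055. At least 2-fold higher were 2 of the 57, against 5.25% of all genes, and 0 were 2-fold lower, against 3.03%. The 2 were MANCR, a long noncoding RNA, and MAP2, a microtubule-associated protein of neurons, both named after their values were seen. Their log2 ratios were at least 2.08 and at least 1.75. Both were well above background on the HTE array alone, so their ratios could only come out at or above 0. The count is therefore not a result about the element. The 4 heat shock genes with such an element, HSPA8, HSP90AA1, HSP90AB1 and HSPD1, had ratios of -0.16, -0.11, -0.0094 and -0.16. The 4 with the exact 2-unit form alone, HSPA1A, HSPA1B, HSPB1 and DNAJB1, had ratios of 0.23, 0.36, 0.37 and -0.054. Units with a mismatch were not searched, and the probes of HSPA1A and HSPA1B may share signal. A link between the form of the element and the ratio was not tested.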

How the data were processed

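Total RNA of HepG2 cells was labelled with Cy3 and hybridised to 1-colour Agilent arrays by the authors, who deposited the Feature Extraction output of each array. The header names version 11.5.1.1 and the submitters' processing notes version 10.7. Per the file headers, its intensity values (the processed signal) had been background-subtracted and detrended, and nothing had been done to scale the arrays to each other. The software's own flags for background, saturation and outliers were used.

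Spots of controls and outliers (440 outliers with DMSO, 459 with HTE) were removed, and the 75th percentile of the log2 processed signal was subtracted on each array. Replicate spots entered as their mean. The filter on dim probes asked that a share of 0.5 or more of the spots be flagged well above background on 1 array or both. A probe well above background on 1 array alone entered with a bound, and a bound under 1-fold was set to a ratio of 1. Names came from a match of RefSeq accessions to the GRCh38.p14 gene table (28146 of 50532 probes). The array's grid was built on another build, so coordinates are given only for RefSeq promoters. The brightest probe stands for a gene, and 2-fold is the cutoff of the study's methods.

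The genes and lists were chosen with earlier results of these data known. All probes of the 10 genes are named, and of other lists the genes past 2-fold and the highest and lowest, with exceptions stated where they occur. The step from spots to genes was tested on a copy of the DMSO array with added noise and known shifts. The shifts were larger than any ratio of the 10 genes, and the background flags were copied. The test therefore does not bear on ratios of that size or on the bound. Alternatives were other scalings (median, none, quantile, E1A spike-in), normexp correction with an offset of 50 on the median signals, the mean over probes, outlier spots kept, other filters on dim probes, the measured value of a dim probe, thresholds of 1.5-fold and 3-fold and, added after the data were seen, the signal before detrending. Python 3.11.15, pandas 2.3.3, numpy 2.4.6, R 4.3.3 and limma 3.58.1 were used. Precision is limited by there being 1 array per condition.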

Additional observations from a re-analysis of the deposited data

How the results depend on the processing

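No paired analysis was possible because each condition had 1 array, and no replicate could be left out. The median of the 10 heat shock genes, -0.045 as reported, was -0.13 with scaling to the median, -0.22 without scaling, -0.16 with the signal before detrending and -1.13 with scaling to the E1A spike-in. With the E1A spike-in, 0 of the 10 genes were above 0, 7 were at least 2-fold lower, and the median of the other small heat shock genes turned from 1.02 to -0.065. That median was 0.57 with the mean over all probes and 0.66 without the filter on dim probes. The median of all genes moved with these settings, by -0.070, -0.16, -0.11 and -1.07 in the same order. Apart from the E1A spike-in, which turned HSPA1A, HSPA1B and HSPB1, the only setting that turned the sign of a heat shock gene was the mean over all probes, for HSP90AB1. At thresholds of 1.5-fold and 3-fold, 0 of the 10 genes were past the threshold, and 23.0% of all genes were past 1.5-fold. Over all genes, 63.4% of those past 2-fold were higher, and this share was 42.2% without scaling, 47.0% before detrending (900 higher and 1014 lower) and 1.3% with the E1A spike-in. The counts were 825 higher and 468 lower with normexp, 2390 and 1868 without the filter on dim probes, and 1341 and 1320 with the measured value of a dim probe. The CRYAA ratio was 0.69 as a mean over its probes, under 2-fold. The cause of these shifts was not tested.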
